A study of Mus musculus with 4 samples.

Results

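Cortical neuropeptides were followed through the probe sets whose single gene symbol was Sst, Cort, Npy, Vip, Adcyap1, Cck, Tac1, Penk, Pdyn or Crh. This rule found 12 of the 12488 probe sets on the arrays, and they name 9 of the 10 genes. Penk has 3 probe sets, Pdyn has 2 and each of the other genes has 1. Crh, the gene of corticotropin-releasing hormone, was not analysed here. The data are 4 single-colour Affymetrix arrays of visual cortex from wild-type C57Bl6 mice, 2 of deprived and 2 of non-deprived cortex. All tissue came from 5 mice that were kept in the dark from birth, lost 1 eye on postnatal day 42, then lived for 4 days under a normal light cycle and were killed on postnatal day 46. Deprived cortex lay contralateral to the removed eye and non-deprived cortex ipsilateral to it, and the tissue on each side was pooled. Dark rearing and the enucleation are therefore shared by both groups, and the deprived side still had input from the remaining eye. Which mice went into which array is not stated, and p-values measure only the spread between these arrays, which may be technical. Signals are given below for array 1 and then array 2 of a group.

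Neuropeptides are made as precursors, cut into active peptides in dense-core vesicles and released from neurons that also use GABA or glutamate. In cortex most of these peptides mark classes of inhibitory interneurons. Sst and Vip mark classes that differ in their targets, Npy and Cck are each made by several, and Cck and Adcyap1 are also made by excitatory neurons. Transcription of Sst, Vip, Penk and several other precursors is known to respond to neuronal activity and to cyclic AMP.

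The 2 members of the secretin peptide family, Vip and Adcyap1, were the members with the lowest signals in deprived relative to non-deprived cortex. The mean signal of Adcyap1 was 1.62-fold lower, and that of Vip was 3.22-fold lower, though its deprived signals were too dim to be told from background, so this ratio is not an exact fold. For both genes each deprived array was below each non-deprived array. For the precursors of somatostatin, cortistatin, neuropeptide Y, cholecystokinin, substance P and the dynorphins the groups overlapped at each probe set. Of the probe sets for the enkephalin precursor Penk, 1 was 1.14-fold higher in deprived cortex without overlap and the others overlapped. Neither Vip nor Adcyap1 passed the threshold of an adjusted p under 0.05 over all probe sets.

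Each gene was compared with limma on log2(signal + 60.6), where the signal is the authors' MAS5 value in arbitrary units and 60.6 is the 20th percentile of the mean signals. Fold changes from this fit understate the change of dim probe sets. Probe sets with a mean signal under 142.9, the 40th percentile, were not tested. Of the 12 peptide probe sets 11 were tested, covering 9 genes, and 1 probe set of Penk was too dim. With limma 0 of these 11 passed an adjusted p under 0.05, against 0.107% (8) of all 7458 probe sets tested. At an unadjusted p under 0.05 in limma 2 were lower, Vip and Adcyap1, and 0 were higher. Over all probe sets the same rule gave 3.66% lower and 1.77% higher. Vip reached a mean of 142.9 only through its non-deprived arrays, which favours a lower deprived signal, so nothing is read from this count.

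**Figure D1:**
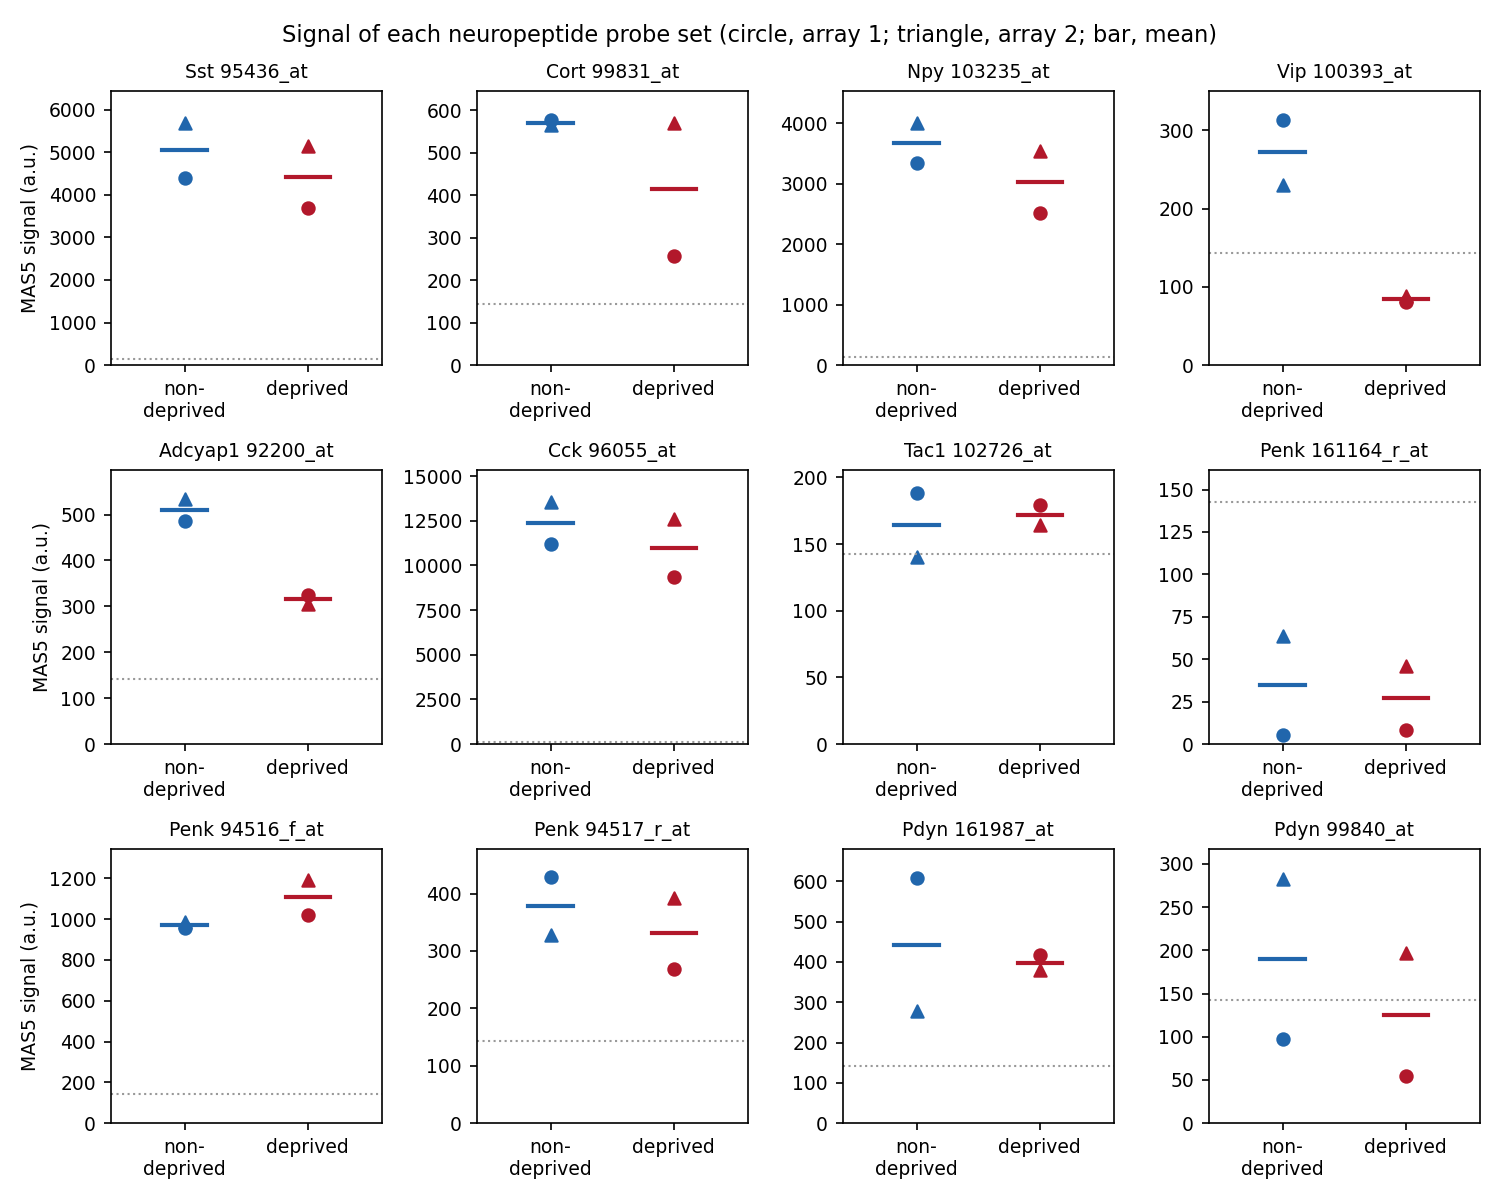
Deposited MAS5 signal (arbitrary units, linear axis from 0) of the 12 neuropeptide probe sets on 2 non-deprived arrays (blue) and 2 deprived arrays (red). Circles are array 1, triangles array 2, bars the group mean and the dotted line the filter at 142.9. The groups are separate with the deprived arrays lower for Vip and Adcyap1 and with the deprived arrays higher for Penk 94516_f_at.

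Vip encodes vasoactive intestinal peptide, made in cortex by interneurons that mainly inhibit other interneurons. Its signal was 80.4 and 88.5 in deprived cortex and 313.4 and 230.4 in non-deprived cortex. Both deprived arrays were low and close to each other, and the groups did not overlap. The means were 84.5 ± 5.73 and 271.9 ± 58.7 (SD, n = 2 per group). limma gave a log2 fold change of -1.19 ± 0.51 (SE), which is 2.28-fold lower on the scale with the pseudocount, with a 95% interval from 4.90-fold to 1.06-fold lower. The unadjusted p was 0.038 and the adjusted p 0.89 in limma, and a difference this large downward was seen for 0.751% (56) of the tested probe sets. Over the 4 deprived against non-deprived pairs, which share arrays and are not independent, Vip was 1.95-fold to 2.65-fold lower on the same scale. Vip was the 1 neuropeptide probe set of 11 that differed at least 1.5-fold in 1 direction in all 4 pairs, where 1.58% of all tested probe sets did so downward and 0.322% upward. Because Vip was tested only through its non-deprived arrays, as described next, nothing is read from these shares or from the 0.751%.

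Vip passed the filter on dim probe sets only through its non-deprived arrays, since its deprived mean was under 142.9. The same was true, in either direction, of 7.92% of the tested probe sets. A probe set of this kind had to differ between the groups to be tested at all, and no detection calls were used here that could tell its deprived signals from background. The filter does not enter the log2 fold change, so that of Vip could not change without it. The unfiltered limma fit gave Vip an unadjusted p of 0.030 and an adjusted p of 0.9999. In bulk tissue fewer Vip cells and less Vip RNA per cell cannot be told apart.

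Adcyap1 encodes PACAP, a peptide related to VIP that acts on the same receptors and on one of its own. Its signal was 324.9 and 305.9 in deprived cortex and 486.2 and 534.2 in non-deprived cortex. The 2 arrays of each group lay close together and the groups were well apart, with both group means above the filter. The means were 315.4 ± 13.4 and 510.2 ± 33.9 (SD, n = 2 per group). limma gave a log2 fold change of -0.60 ± 0.27 (SE), an unadjusted p of 0.0498 and an adjusted p of 0.91. Its 95% interval ran from 2.30-fold lower to just under no difference. In the 4 pairs Adcyap1 was 1.42-fold to 1.62-fold lower on the log2(signal + 60.6) scale, so 2 of the pairs missed 1.5-fold.

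Vip and Adcyap1 were thus 2 of 11 neuropeptide probe sets whose deprived arrays were both below the non-deprived arrays, and 1 more, of Penk, was separate with the deprived arrays higher. Over all tested probe sets the groups were separate in this way for 17.1% downward and 15.1% upward. Read against these shares, the count of separate groups does not set the peptides apart from other genes. RNA integrity was read from the 5′ over 3′ signal of actin, which was 0.544 and 0.463 in deprived cortex and 0.638 and 0.632 in non-deprived cortex. For Gapdh it was 0.745 and 0.689 against 0.875 and 1.07. Both ratios were lower on the arrays where Vip and Adcyap1 were lower, and their part in the differences was not tested.

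Sequence upstream of the start sites is shown because Vip and Adcyap1 were lower on the same arrays and because the cAMP response element is the best known activity-linked element of peptide genes. Promoter windows from RefSeq (GRCm38.p6), from 250 bases before to 50 after an annotated start, were found for 8 of the 10 genes, in 10 windows. They were searched on both strands for the full element TGACGTCA and for its core letters TGACG, which every full element also holds. The full element was in the window of 1 of these 8 genes, Sst, against 2.03% of 27025 genes with a window. The core was in those of 6 genes, Sst, Cort, Vip, Adcyap1, Cck and Tac1, against 23.0% of all genes. The windows of Vip and Adcyap1 both hold TGACGTCT, which shares its first 7 letters with the full element and was found in 0.636% of genes. This longer string was chosen after both the expression values and the sequences had been seen, as letters that these 2 genes share, so its presence in them is no finding. A match is a run of letters and not a measured binding site. In the lines that follow the capitals mark the core, with the 3 letters after it where they continue as in the full element or in TGACGTCT. On the opposite strand the core reads CGTCA.
Vip, chr10:5639127-5639156, plus strand: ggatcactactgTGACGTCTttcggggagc
Adcyap1, chr17:93198914-93198943, plus strand: ggactaggatgcTGACGTCTtttactgata
Sst, chr16:23890875-23890904, minus strand: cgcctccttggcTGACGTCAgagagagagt
Cck, chr9:121495725-121495754, minus strand: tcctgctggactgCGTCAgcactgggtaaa
Cort, chr4:149126765-149126794, minus strand: gctccggcttgtgCGTCAccgcgtgagtgt
Tac1, nearer match, chr6:7555005-7555034, plus strand: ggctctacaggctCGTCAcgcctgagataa

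The core began 79 bases upstream of the Vip start, 48 bases upstream of the Sst start and 91 bases upstream of 1 of the 2 Adcyap1 starts. The wider Vip sequence from 190 to 31 bases upstream, chr10:5639028-5639187 on the plus strand, shows the match in its context, with the same 8 letters in capitals.
Vip, upstream region: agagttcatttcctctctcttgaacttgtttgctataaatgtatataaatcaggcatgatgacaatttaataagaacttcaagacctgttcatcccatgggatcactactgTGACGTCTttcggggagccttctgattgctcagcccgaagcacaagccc
Penk and Crh had no window and were not searched. Of the 8 genes searched, Sst was the 1 with the full element, and its signals overlapped between the groups. Vip and Adcyap1 were the 2 members at an unadjusted p under 0.05 in limma. Whether any of these matches is used in this tissue was not measured.

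Sst encodes somatostatin, the peptide of interneurons that inhibit dendrites. Its signal was 3683 and 5153 in deprived cortex and 4397 and 5692 in non-deprived cortex. Array 1 was below array 2 in both groups by more than the groups differed, and the groups overlapped. limma gave a log2 fold change of -0.20 ± 0.21 (SE), an adjusted p of 0.999 and a 95% interval from 1.57-fold lower to 1.19-fold higher. Cort encodes cortistatin, a close relative that binds somatostatin receptors. Its signal was 256.3 and 570.4 in deprived cortex against 576.6 and 564.8 in non-deprived cortex. Deprived array 1 alone was low, and deprived array 2 lay between the non-deprived arrays. The log2 fold change of Cort was -0.50 ± 0.33 (SE) with an adjusted p of 0.99 in limma, but without deprived array 1 it was -0.00071 and without deprived array 2 it was -0.99.

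Npy encodes neuropeptide Y, a peptide of several interneuron classes that dampens transmitter release. Its signal was 2519 and 3531 in deprived cortex and 3346 and 4009 in non-deprived cortex. The groups overlapped, with deprived array 1 the lowest of all. The log2 fold change was -0.29 ± 0.20 (SE), with an adjusted p of 0.99 in limma and a 95% interval from 1.65-fold lower to 1.10-fold higher. It was -0.05 without deprived array 1 and -0.53 without deprived array 2. Cck, the gene of cholecystokinin, had a signal of 9336 and 12625 in deprived cortex and of 11190 and 13559 in non-deprived cortex. It had the same order of arrays as Sst and Npy. The log2 fold change of Cck was -0.18 ± 0.22 (SE) with an adjusted p of 0.999 in limma, and its 95% interval ran from 1.58-fold lower to 1.23-fold higher.

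Sst, Npy and Cck each had the lowest signal on deprived array 1 and the highest on non-deprived array 2. Within the same-numbered arrays, which the design text implies came from the same animals, all of these were lower on the deprived side, by 0.25, 0.40 and 0.26 on the log2 scale for arrays 1 and by 0.14, 0.18 and 0.10 for arrays 2. The cross pair of deprived array 2 and non-deprived array 1 had the opposite sign for all of them. In all 6 of 11 neuropeptide probe sets, those of Sst, Npy, Vip, Adcyap1 and Cck and the dimmer of Pdyn, were lower in both same-numbered pairs, against 26.5% of all tested probe sets, and 1, of Penk, was higher in both, against 27.2%. Vip and the dimmer Pdyn probe set are in this count although they passed the filter only through their non-deprived arrays, which favours a lower deprived signal, so nothing is read from the count. With the replicate number as a block in limma 0 of the 11 passed an adjusted p under 0.05, where 0.536% (40) of all probe sets did. Vip and Adcyap1 were again the 2 at an unadjusted p under 0.05 (0.019 and 0.038), with adjusted p of 0.41 and 0.50 in that blocked limma fit. At an unadjusted p under 0.05 the blocked fit had 5.69% of all probe sets lower. The same limit on Vip holds for this count, and nothing is read from it either.

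**Figure D2:**
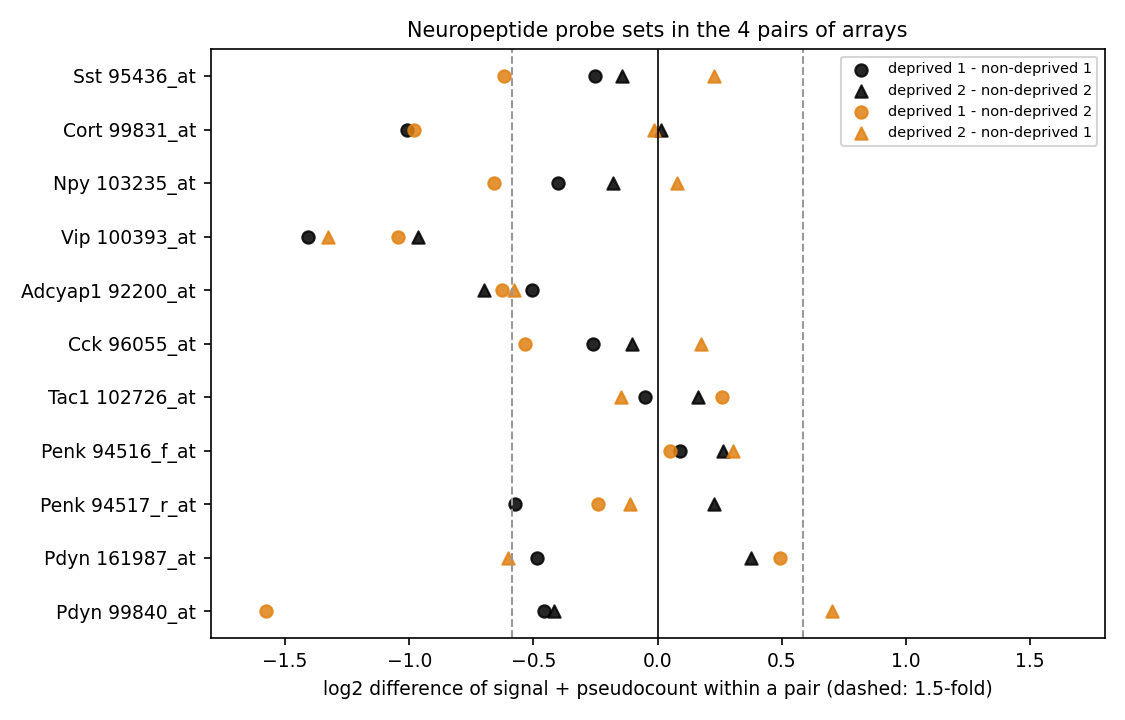
Log2 difference of signal + 60.6 in the 4 deprived against non-deprived pairs, for the 11 tested neuropeptide probe sets. Black points are same-numbered pairs and orange points cross pairs, circles use deprived array 1 and triangles deprived array 2, and dashed lines mark 1.5-fold. All 4 points of Vip lie beyond 1.5-fold on the lower side, those of Adcyap1 lie around it, and Sst, Npy and Cck have points on both sides of 0.

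Tac1 encodes the precursor of substance P. Its signal was 179.4 and 164.1 in deprived cortex and 188.3 and 140.1 in non-deprived cortex. The deprived arrays lay between the non-deprived ones. The log2 fold change was 0.06 ± 0.49 (SE), with an adjusted p of 0.999 in limma, and the 95% interval ran from 2.01-fold lower to 2.17-fold higher, so a difference of about that size was not detectable at this signal.

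Penk encodes the precursor of the enkephalins, opioid peptides. Probe set 94516_f_at gave 1021 and 1193 in deprived cortex and 956 and 984.4 in non-deprived cortex. The deprived arrays were higher without overlap, but by less than the spread that limma assigns, with a log2 fold change of 0.18 ± 0.19 (SE) and an adjusted p of 0.999. The suffix f marks probes shared with similar sequences, so its signal need not come from Penk alone. Probe set 94517_r_at gave 267.8 and 393.1 in deprived cortex and 428.8 and 327.5 in non-deprived cortex. These groups overlapped, and the log2 fold change, -0.18 ± 0.32 (SE) in limma, had the opposite sign. The remaining probe set, 161164_r_at, ran from 5.2 to 64.0 over the 4 arrays and was not tested. The Penk probe sets thus did not give 1 direction.

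Pdyn encodes the precursor of the dynorphins, opioid peptides that act mainly on kappa receptors. Probe set 161987_at gave 416.4 and 379.6 in deprived cortex and 607.8 and 278.2 in non-deprived cortex. The deprived arrays lay between the non-deprived ones, and limma gave a log2 fold change of -0.05 ± 0.34 (SE). Probe set 99840_at gave 54.6 and 196.9 in deprived cortex and 97.8 and 282.9 in non-deprived cortex. Its deprived mean was under the filter, which it passed through the non-deprived group. Arrays 2 were high and arrays 1 low in both groups, and the log2 fold change was -0.44 ± 0.64 (SE). Non-deprived array 1 was the higher of its group at one Pdyn probe set and the lower at the other, so the probe sets did not follow each other across arrays.

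**Figure D3:**
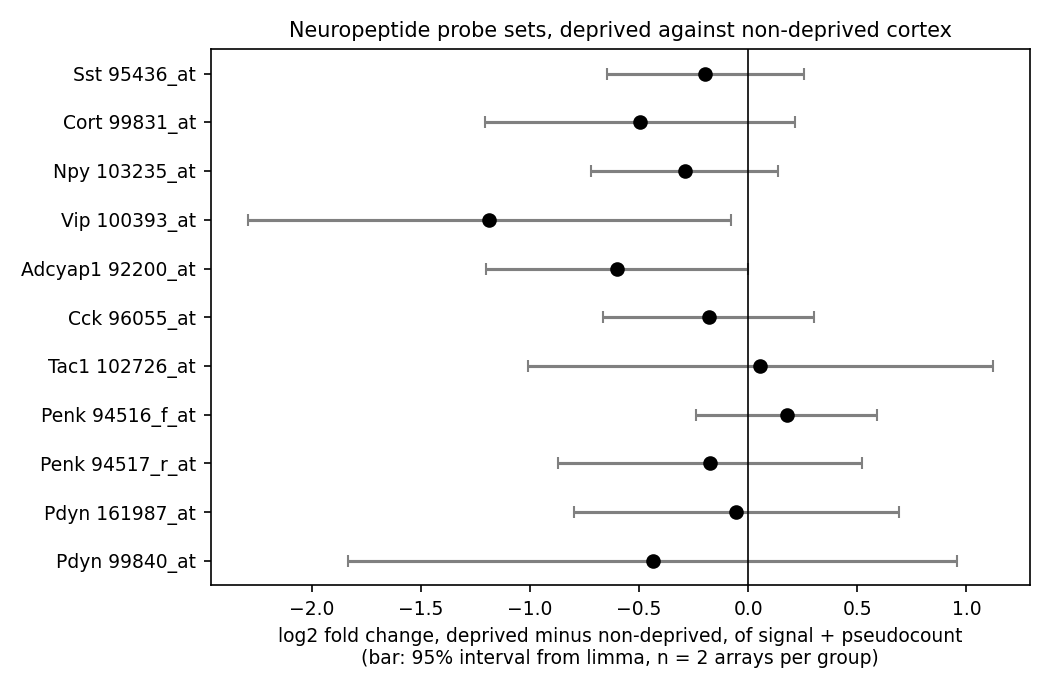
Log2 fold change of signal + 60.6, deprived minus non-deprived, for the 11 tested neuropeptide probe sets, with 95% intervals from limma (n = 2 arrays per group). The intervals of Vip and Adcyap1 end just below 0, and the other 9 cross it.

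The 11 neuropeptide probe sets had a median log2 fold change of -0.20, with 9 lower and 2 higher, against a median of 0.0015 and 49.8% lower over all tested probe sets. Vip and the dimmer Pdyn probe set are among the 9 lower. Both passed the filter only through their non-deprived arrays, which favours a lower deprived signal, so nothing is read from the count of signs. In the pairs with deprived array 1 the median was -0.46 against non-deprived array 1 and -0.62 against non-deprived array 2. In those with deprived array 2 it was -0.014 and -0.10. Without deprived array 1 the median was 0.0076, and without deprived array 2 it was -0.44. The lower median of the peptides as a group therefore rested on deprived array 1. Vip and Adcyap1 were lower with either deprived array, which follows from their separate groups and is no further result. Deprived array 1 was also the least correlated with the rest, at a mean r of 0.91 against 0.93 for each other array. Its median signal was 245.7, against 189.9 to 229.6 on the others.

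The receptors for these peptides are G protein-coupled receptors. Of 23 receptor genes 10 were tested at 13 probe sets. Npy1r at 93007_at and Sstr5 passed the filter only through their non-deprived arrays, and Npy1r at 93128_at only through its deprived arrays. Nothing is therefore read from the count of signs below. In limma 0 passed the adjusted threshold, and at an unadjusted p under 0.05 there was 1 lower and 0 higher. The median log2 fold change was -0.24, with 8 lower and 5 higher. It was 0.05 and 0.14 in pairs that used deprived array 1, but -0.38 and -0.43 in pairs that used deprived array 2, so the lower receptor median rested on deprived array 2 and not on the array that lowered the peptide median. The lowest p belonged to Sstr2, a somatostatin receptor, at probe set 98351_g_at. There its signal was 282.1 and 432.3 in deprived cortex and 594.4 and 641.4 in non-deprived cortex, with a log2 fold change of -0.72 ± 0.28 (SE) and an adjusted p of 0.77 in limma. The other 2 tested probe sets of Sstr2 gave 0.18 and 0.11, so they did not share this direction. Cckbr, the main brain receptor for cholecystokinin, gave -0.39 ± 0.20 (SE), with 1439 and 1011 in deprived cortex and 1690 and 1507 in non-deprived cortex. Its groups did not overlap, and its adjusted p was 0.96 in limma. Sstr4, another somatostatin receptor, gave -0.21 ± 0.22 (SE). Among receptors that bind VIP and PACAP, named here because of Vip and Adcyap1, Vipr1 gave -0.35 ± 0.61 (SE) and Adcyap1r1 -0.29 ± 0.37 (SE), and the Vipr2 probe set was too dim to test.

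Genes that cut, pack and release peptides showed little shift as a group. Of the 23 genes on this list 15 were tested at 20 probe sets, with a median log2 fold change of -0.04, 11 lower and 9 higher. In limma 0 passed the adjusted threshold, and at an unadjusted p under 0.05 there was 1 lower and 0 higher. Chga, which encodes the dense-core vesicle protein chromogranin A, had a signal of 1186 and 1277 in deprived cortex and of 1651 and 1709 in non-deprived cortex. Its arrays were tight and its groups separate, with a log2 fold change of -0.43 ± 0.17 (SE) and an adjusted p of 0.83 in limma, while its dimmer probe set gave 0.53 ± 0.43 (SE). Pcsk1, a protease that cuts many precursors, had 171.8 and 127.4 in deprived cortex and 303.8 and 224.7 in non-deprived cortex. Its groups did not overlap and its log2 fold change was -0.63 ± 0.44 (SE), with an adjusted p of 0.999 in limma. Scg2, a granin precursor, gave -0.28 ± 0.19 (SE), also with separate groups. Vgf was not analysed here.

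**Figure D4:**
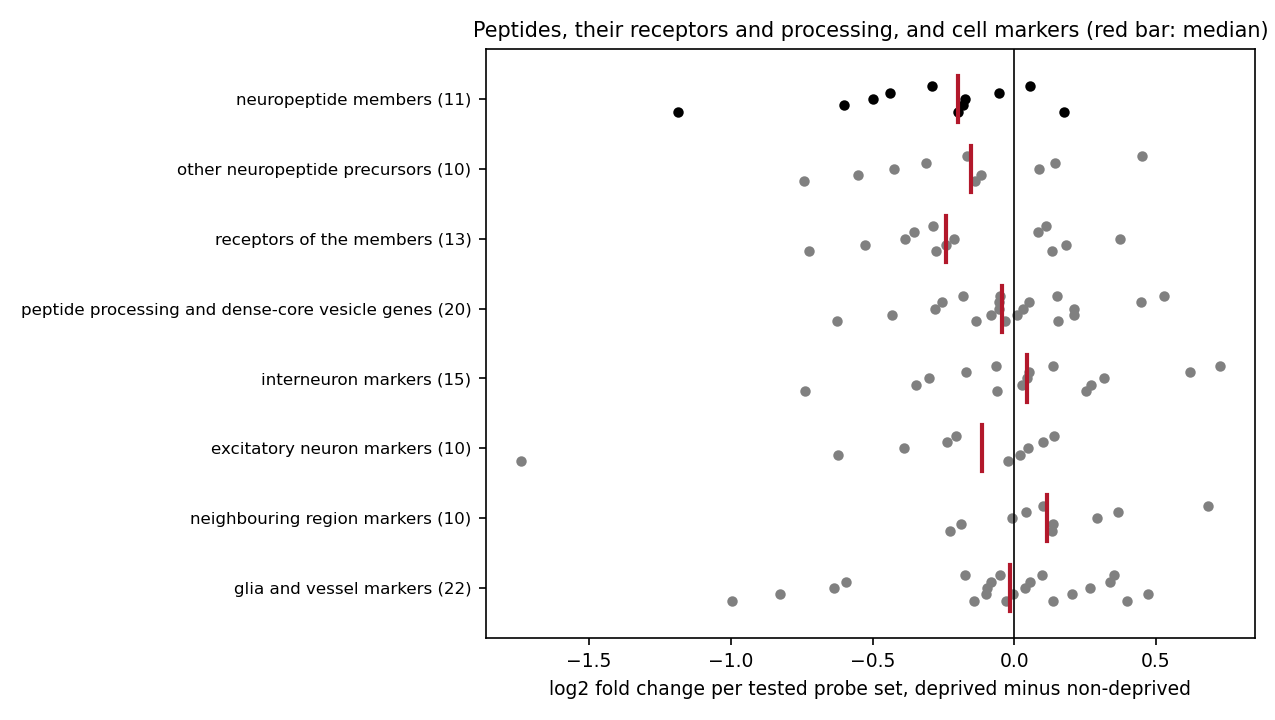
Log2 fold change, deprived minus non-deprived, of each tested probe set of the neuropeptides (black) and of 7 other gene lists (grey), with the number of probe sets in brackets and the median as a red bar. From top to bottom the medians are -0.20, -0.15, -0.24, -0.04, 0.05, -0.11, 0.12 and -0.02, and the points of every list lie on both sides of 0.

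Markers of the interneurons that make most of these peptides had a median log2 fold change of 0.05 over 15 probe sets of 13 genes, 6 lower and 9 higher. In limma 0 passed the adjusted threshold and 0 had an unadjusted p under 0.05. Gad1, the GABA-synthesising enzyme shared by all these cells, had 2928 and 2732 in deprived cortex and 3030 and 2882 in non-deprived cortex, a log2 fold change of -0.06 ± 0.16 (SE). Slc32a1, the vesicular GABA transporter, gave -0.30 ± 0.17 (SE), Gad2 0.27 ± 0.52 (SE) and the transcription factor Dlx1 0.73 ± 0.41 (SE). The non-deprived mean of Gad2 was 134.2, under the filter, which it passed only through the deprived group. Pvalb, the marker of a class that makes none of Vip, Sst or Npy as its main peptide, gave -0.17 ± 0.17 (SE) at its brighter and 0.62 ± 0.38 (SE) at its dimmer probe set. Calb2 and Htr3a, named here because Vip cells carry them, gave 0.14 ± 0.24 and -0.74 ± 0.46 (SE). Htr3a was low on deprived array 2 alone, with 89.0 against 307.8 to 332.7 on the other 3 arrays. The summed signal of the interneuron list was 15079 and 15200 in deprived and 16105 and 15820 in non-deprived cortex. Both deprived sums were thus below both non-deprived sums, a difference that was not tested.

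Markers of excitatory neurons, which also make Cck and Adcyap1, had a median of -0.11 over 10 probe sets of 9 genes. In limma 0 passed the adjusted threshold, and 2, both of Camk2a, were lower at an unadjusted p under 0.05. With the replicate block 1 of these Camk2a probe sets passed, with an adjusted p of 0.032 in limma. The kinase gene Camk2a gave -1.74 ± 0.43 and -0.62 ± 0.21 (SE) and the layer 5 factor Fezf2 -0.39 ± 0.25 (SE). All 9 excitatory genes with a probe set could be tested, and the cortical transcription factor gene Tbr1, added here as a check of the tissue, had signals of 3331 to 4396 on the 4 arrays. Fos, an activity-induced transcription factor, was lower in the same fit, with a log2 fold change of -1.38 ± 0.18 (SE) and an adjusted p of 0.020 in limma.

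Tac1, Penk and Pdyn are also abundant in the striatum, which is not part of visual cortex. Of the 13 genes with a probe set on the list for neighbouring regions 7 were tested at 10 probe sets, with a median log2 fold change of 0.12, and 0 passed in limma with 0 at an unadjusted p under 0.05. Its median was 0.29 and 0.27 in pairs that used deprived array 1, but -0.21 and -0.15 in pairs that used deprived array 2. Some of its genes are named here, outside the rule, to show the level of both kinds. The striatal gene Drd2 was tested, with 411.4 and 132.3 in deprived cortex and 250.8 and 181.1 in non-deprived cortex, as were Tcf7l2 with 483.9 to 564.5 and Rgs16 with 651.8 to 1001 at their brighter probe sets. The striatal gene Rgs9 had 33.6 to 77.2 and the thalamic genes Gbx2 and Lhx9 had 3.3 to 60.2 over all arrays, under the filter. Prox1, also under the filter, was higher in deprived cortex without overlap, with 111.7 and 80.7 against 37.6 and 11.5. The other probe sets of the list under the filter overlapped. The smallest p on the list belonged to Foxp1, at 0.68 ± 0.31 (SE) with an adjusted p of 0.91 in limma, while its brighter probe set gave 0.10 ± 0.22 (SE). It was followed by Prkcd at 0.37 ± 0.30 (SE), whose other probe set gave -0.19 ± 0.26 (SE) with separate groups, and by Wfs1 at -0.23 ± 0.22 (SE). The summed signal of the list was 7015 and 5545 in deprived cortex and 5379 and 5633 in non-deprived cortex. The choroid plexus gene Ttr, also named outside the rule, had 258.3 on deprived array 1 and 39.8 to 67.0 on the other 3. Deprived array 1, on which Sst, Npy, Cck and Cort were lowest, thus had the highest sum for neighbouring regions. This was not particular to that list. The same array had the highest sum for the receptors, 8216 against 5300 to 7834 on the others. For the other neuropeptide precursors, described below, it had 4562 against 3996 to 4484. Its sum was the lowest for the excitatory neuron markers, 16427 against 19592 to 20647 on the others. The same held for the interneuron markers, 15079 against 15200 to 16105, and for the peptides themselves, 18147 against 22594 to 26666. For the peptide processing genes and the glia and vessel markers it was neither the highest nor the lowest. The part of these sums in the peptide values was not tested.

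Markers of glia and vessels had a median of -0.02 over 22 probe sets of 14 genes, 12 lower and 10 higher. In limma 0 passed the adjusted threshold, while 4 were lower and 1 was higher by the unadjusted p. The smallest p belonged to the myelin gene Mobp at -0.59 ± 0.19 (SE), whose brightest probe set gave 0.47 ± 0.17 (SE), followed by the astrocyte glutamate transporter gene Slc1a2 at -0.997 ± 0.33 (SE) and the microglial receptor gene Csf1r at -0.83 ± 0.30 (SE), whose brighter probe set gave 0.10 ± 0.19 (SE). The summed signals of this list overlapped between the groups, with 30858 and 29975 in deprived cortex and 30922 and 28994 in non-deprived cortex.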

How the data were processed

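Per the submitters' processing notes the authors made the deposited intensities with MAS5, 1 signal per probe set on a linear scale. Neither the version of MAS5 nor detection calls nor a scaling target is stated there. The 2% trimmed mean was 500.3 to 500.4 on each of the 4 arrays. The platform's annotation table gave 10855 of 12488 probe sets a single symbol, 396 several and 1237 none. Symbols were updated through Entrez identifiers in RefSeq (GRCm38.p6), which matched 10839. Arrays were scaled to a common trimmed mean, 60.6 was added and log2 taken, and 66 control probe sets and those with a mean signal under 142.9 were left out. limma 3.58.1 in R 4.3.3 (eBayes with a mean-variance trend, 2 residual degrees of freedom, 11.6 with the prior) compared the groups, two-sided, with Benjamini-Hochberg adjustment over 7458 probe sets. An exact permutation test of 2 arrays against 2 cannot give a two-sided p under 0.333. The fit was tested on simulated data.

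The number of arrays limits the precision. The design text sets cross-animal comparisons apart from the others, which implies that same-numbered arrays came from the same animals. Over the tested probe sets, deviations from the group mean correlated with r = 0.27 between same-numbered arrays. A second fit took the replicate number as its block. Members and gene lists were chosen with earlier results of these data known. Genes named are all members, the 3 probe sets of smallest p in each list and a few fixed ones (Gad1, Gad2, Slc32a1, Pvalb, Vgf, Fos). Others are marked where they occur. Alternatives covered the pseudocount, the filter, the normalization, the variance trend, the block and leaving out each array.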

Additional observations from a re-analysis of the deposited data

How the results depend on the processing

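With 2 arrays per group only large differences could pass, and several peptide probe sets lay near the filter. None of the 11 neuropeptide probe sets passed an adjusted p under 0.05 in limma under any alternative run, including the replicate block, which changed no call of theirs. Vip stayed between -1.51 and -0.86 on the log2 scale, with unadjusted p from 0.0033 to 0.33 and adjusted p from 0.30 to 1, and Adcyap1 between -0.67 and -0.51, with unadjusted p from 0.033 to 0.26. Their unadjusted p was above 0.05 without either non-deprived array, and that of Adcyap1 also with the larger pseudocount, with no filter or the stricter one, with a common median and without deprived array 2. The count over all probe sets was 8 and became 40 with the replicate block, 1 after quantile normalization, 3 with a common median, 0 without the variance trend and 5 to 90 with 1 array left out. The count of 1 peptide probe set at 1.5-fold in all pairs became 0 with the filter at the 60th percentile, which leaves out Vip, 2 at 1.2-fold, 0 at 2-fold and 1 to 2 with 1 array left out. Signs turned, in each case without a call, only when 1 array was left out. Over these fits Sst ran from -0.44 to 0.042, Cck from -0.40 to 0.035, the dimmer tested Penk probe set from -0.41 to 0.058 and the dimmer Pdyn probe set from -1.02 to 0.14, each highest without deprived array 1. The brighter Pdyn probe set ran from -0.54 to 0.44 and Tac1 from -0.10 to 0.21, each highest without non-deprived array 1. Apart from fewer probe sets or arrays, the cause was not tested. The other 121 values kept their sign and their side of the threshold.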

Other observations

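Other neuropeptide precursors, from a list of 32 genes, were mostly dim. Of the 20 genes with a probe set 9 were tested, at 10 probe sets, with a median log2 fold change of -0.15, 7 lower and 3 higher. Pomc and Nppc passed the filter only through their non-deprived arrays and Kng1 only through its deprived arrays, so nothing is read from these signs. The median was -0.16 and 0.09 in pairs that used deprived array 1, but -0.28 and -0.22 in pairs that used deprived array 2. In limma 0 passed the adjusted threshold and 0 had an unadjusted p under 0.05. Trh, the precursor of thyrotropin-releasing hormone, had the smallest p, with 76.0 and 387.9 in deprived cortex and 243.5 and 504.0 in non-deprived cortex. Its groups overlapped, array 1 was the lower in both, and its log2 fold change was -0.74 ± 0.54 (SE) with an adjusted p of 0.999 in limma. Pomc, the precursor of melanocortins and beta-endorphin, had 181.2 and 48.3 in deprived cortex and 282.6 and 103.9 in non-deprived cortex. Here array 2 was the lower in both groups, and the log2 fold change was -0.55 ± 0.64 (SE). Hcrt, the orexin precursor known from hypothalamic neurons, had 350.9 and 165.2 in deprived cortex and 292.6 and 80.5 in non-deprived cortex, a log2 fold change of 0.45 ± 0.54 (SE).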
